A study of Mus musculus with 8 samples.

Results

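The 8 genes described here were each brighter in mouse kidney proximal tubule cells given GW4064. They were grouped apart from lists of known targets of the bile acid receptor FXR, and whether FXR acts on them was not tested. They were Zdhhc19, Crygs, Sectm1b, Sectm1a, Slc18a1, Jph2, Rnase4 and Ang, taken by name from results of these same arrays. Every probe whose transcript accession named 1 of these genes was used, which gave 8 probes, 1 per gene, of 39429 probes and 20659 named genes in all. They were selected on the size of their signal difference between the GW4064 and DMSO arrays, so that difference is given as a description with no test. The measured difference was 1 or more on the log2 scale for 7 of the 8, as it was for 1.02% of all genes tested. Sectm1a did not reach that size. For Jph2, which was not detected with DMSO, the main processing gave only a bound, at least 1.97-fold. Under another background correction its fold was 0.775, below that bound. The working name of strongly induced genes is therefore not settled for Sectm1a and Jph2.

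The arrays compared primary cultures of proximal tubule cells that received 1 uM GW4064 (4 arrays) with cultures that received DMSO alone (4 arrays), both for 24 h in serum-free DMEM. All cultures came from kidney cortices of male C57/BJ mice aged 6 weeks and were grown to confluence before the treatment. GW4064 is a synthetic agonist of FXR, and DMSO is its solvent. Separate animals or cultures behind the 4 arrays of a group are not stated in the labels, so p-values reflect how these arrays vary, perhaps for technical reasons alone.

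FXR is a nuclear receptor that bile acids activate. With its partner RXR it binds DNA best at a pair of AGGTCA hexamers that face each other with 1 base between them, and it raises genes of bile acid export such as Slc51a, Slc51b and Fabp6. The genes described here are better known for other roles. Zdhhc19 is a palmitoyltransferase best known from the testis, Crygs is a structural crystallin of the lens, and Slc18a1 loads monoamines into secretory vesicles of neuroendocrine cells. Jph2 tethers the plasma membrane to the calcium store of heart muscle, Sectm1a and Sectm1b encode membrane proteins related to human SECTM1, a ligand of CD7, and Rnase4 and Ang encode small secreted ribonucleases, Ang being angiogenin.

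The start regions of these genes are shown because Rnase4 and Ang, which moved together, have the same one, and because the FXR motif can be looked for in the others. RefSeq (GRCm38.p6) promoter windows, from 250 bases before to 50 bases after the start, were matched for 6 of the 8 genes and made 7 distinct windows. The window of Ang was also the first of the 2 windows of Rnase4. In the windows below, written 5′ to 3′ along the gene's strand, capitals mark the 13 bases nearest to the FXR motif, the first such stretch where several tied.
Rnase4 and Ang, chr14:51090827-51091126, plus strand: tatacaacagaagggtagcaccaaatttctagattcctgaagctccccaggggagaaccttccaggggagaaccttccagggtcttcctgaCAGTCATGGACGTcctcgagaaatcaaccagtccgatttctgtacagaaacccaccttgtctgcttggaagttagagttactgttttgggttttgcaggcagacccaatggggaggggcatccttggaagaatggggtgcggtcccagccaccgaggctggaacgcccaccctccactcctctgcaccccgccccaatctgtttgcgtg
Zdhhc19, chr16:32496031-32496330, plus strand: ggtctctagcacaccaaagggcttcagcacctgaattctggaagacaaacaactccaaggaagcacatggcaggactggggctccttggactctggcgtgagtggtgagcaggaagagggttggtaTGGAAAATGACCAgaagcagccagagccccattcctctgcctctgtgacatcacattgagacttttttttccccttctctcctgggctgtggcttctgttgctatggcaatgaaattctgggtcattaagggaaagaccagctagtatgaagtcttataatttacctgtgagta
Sectm1b, chr11:121063520-121063819, minus strand: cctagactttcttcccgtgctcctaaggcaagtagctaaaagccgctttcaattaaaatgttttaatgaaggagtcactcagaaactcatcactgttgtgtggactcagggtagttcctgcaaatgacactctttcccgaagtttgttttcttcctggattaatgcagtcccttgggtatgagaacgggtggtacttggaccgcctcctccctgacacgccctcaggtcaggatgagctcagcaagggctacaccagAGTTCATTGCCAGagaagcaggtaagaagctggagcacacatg
Jph2, chr2:163397944-163398243, minus strand: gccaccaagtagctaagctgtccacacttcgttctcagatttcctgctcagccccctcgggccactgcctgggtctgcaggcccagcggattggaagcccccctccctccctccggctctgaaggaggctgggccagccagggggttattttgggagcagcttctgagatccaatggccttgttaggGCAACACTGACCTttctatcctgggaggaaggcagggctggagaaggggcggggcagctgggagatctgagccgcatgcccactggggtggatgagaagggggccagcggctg

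The motif searched was AGGTCA, any 1 base, then TGACCT, which reads the same on both strands. None of the 7 windows held it, and 0.00914% of 32817 windows of all genes did. The direct repeat, AGGTCA, any 1 base, then AGGTCA, on either strand, was in none of the 7 and in 0.0396% of all. A single AGGTCA on either strand was in 3 of the 7, the window of Sectm1b and both overlapping windows of Jph2, against 16.3% of all windows. The windows of Jph2 hold the same hexamer, at -56 in the printed window and at -76 in the other, so the 3 counts it 2 times. The nearest stretch had 4 mismatches over the 12 fixed positions in 6 of the windows and 5 in the second window of Rnase4, and 56.4% of all windows had 4 or fewer. For comparison, the known FXR target Fabp6 had a stretch with 2 mismatches, which 1.14% of all windows reached, and Slc51a and Slc51b had 3, which 11.4% reached. Below, these stretches are set beside those of the genes described, with capitals for the letters that match the motif and its first base placed relative to the start.
Fabp6, -142: AGGTgAaTaACCT
Fabp6, -222: AGGTgAaTGACCa
Slc51b, -187: gGGTCAtTcACCc
Slc51a, -79: AGGaCttTGtCCT
Jph2, -63: gcaaCAcTGACCT
Zdhhc19, -124: tGGaaAaTGACCa
Sectm1b, 8: AGtTCAtTGcCag
Rnase4 and Ang, -159: caGTCAtgGACgT
Crygs, -157: gGGcCAcaGAgCT
A match of letters is a description of the window and no evidence of binding, and sites farther away were not looked at.

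Levels are given as the spot's signal in percent of the 75th percentile of its array, the signal that 1 in 4 probes exceeded. They can be compared between arrays for 1 gene, not between genes. A signal is called detected where the scanner software marked it well above background. All 8 genes passed the filter of detection on at least 4 of the 8 arrays. For Zdhhc19, Crygs, Sectm1b and Jph2 this was through the GW4064 arrays alone, so these 4 had to differ. Slc18a1, Rnase4 and Ang were detected on all 8 arrays, and Sectm1a on 4 GW4064 arrays and 3 DMSO arrays. The lowest GW4064 array lay above the highest DMSO array for 8 of the 8 genes, as it did for 15.0% of all genes tested.

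**Figure D1:**
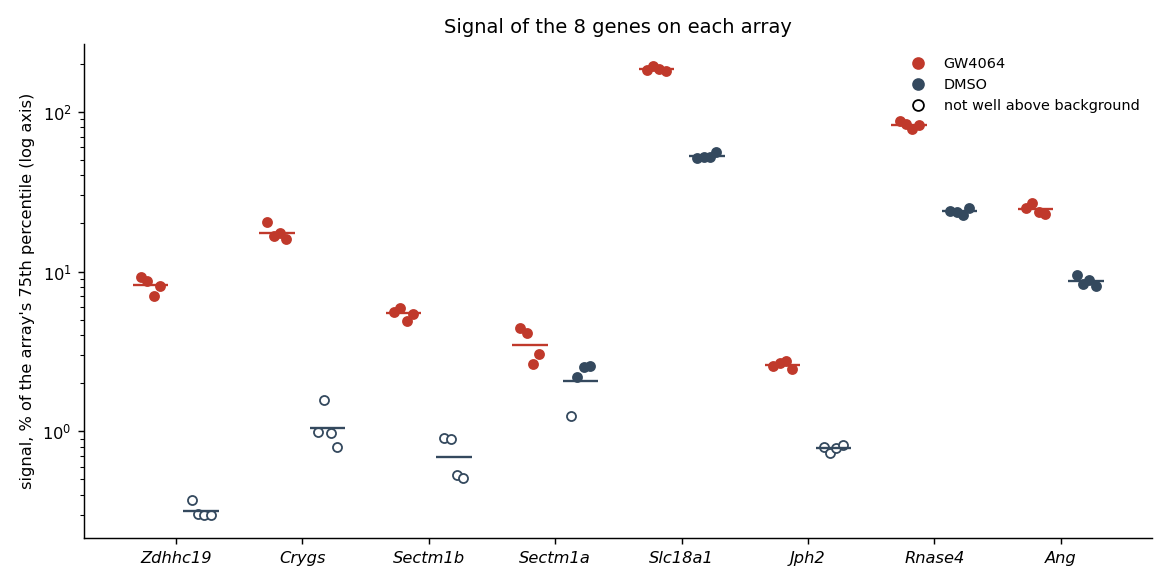
Signal of each gene on each array, in percent of the array's 75th percentile on a log axis. Points are arrays, lines are means of log2 values, and open points were not well above background. The GW4064 points lie above the DMSO points for every gene, and the gap is narrowest for Sectm1a.

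The label of the cells held, since 14 of 14 proximal tubule markers were detected on all 8 arrays. They also moved with the treatment. Genes other than the 8 were tested with limma and adjusted over all 14476 genes, of which 20.8% were called at an adjusted p of 0.05, 11.8% higher and 8.95% lower with GW4064. Of the 14 proximal tubule markers 11 rose, 0 fell and 3 did not pass, and their summed signal was 14113.5% to 15874.5% with GW4064 and 8740% to 10065% with DMSO. Of 8 tested leukocyte markers 3 rose (Csf1r, Cd74 and Coro1a), with a summed signal of 1398% to 1621% with GW4064 and 1082% to 1228% with DMSO, and no marker of the 9 on the array was undetected throughout. Cdh5 and Plvap rose among 5 endothelial markers and Pdgfrb among 5 of fibroblasts, while Umod and Slc12a3 fell among 5 of other nephron segments. Among other settings the call of Cd74 was lost in 7, of Coro1a in 5 and of Slc12a3 in 9. The part of these shifts in the results below was not tested, and in cultures measured whole, more cells of a type and more RNA per cell cannot be told apart. The FXR target Slc51b (3.40 ± 0.07, adjusted p = 1.43e-07 in limma) rose, and Nr1h4, the gene of FXR itself, fell by 0.45 ± 0.05 (0.000302). Fabp6 was at least 61.4-fold higher with GW4064, and it too was detected on the GW4064 arrays alone.

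Zdhhc19, the palmitoyltransferase, had signals of 9.25%, 8.76%, 7.00% and 8.09% with GW4064, against 0.371%, 0.303%, 0.297% and 0.297% with DMSO. It was detected on 4 of 4 GW4064 arrays and on 0 of 4 DMSO arrays. With DMSO at background only a bound on the fold can be given, at least 6.22-fold higher with GW4064. All bounds in this text hold for the main processing alone. With normexp, another background correction described further on, the fold of Zdhhc19 was 1.63. The measured log2 difference was 4.71 ± 0.10 (SE, n = 4 per group), 4.75 on slide 1 and 4.66 on slide 2.

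Crygs, the lens crystallin, had signals of 20.3%, 16.6%, 17.3% and 15.9% with GW4064, against 0.994%, 1.57%, 0.981% and 0.797% with DMSO. It too was detected on 4 of 4 GW4064 arrays and on 0 of 4 DMSO arrays. The bound on its fold was at least 12.4-fold, GW4064 over DMSO, with a measured log2 difference of 4.05 ± 0.19 (SE, n = 4 per group). On slide 1 the difference was 3.88 and on slide 2 it was 4.23. DMSO replicate 2 was the highest of the undetected values.

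Sectm1b had signals of 5.62%, 5.94%, 4.93% and 5.43% with GW4064, against 0.907%, 0.894%, 0.536% and 0.510% with DMSO, where it was detected on 0 of 4 arrays. It was at least 4.13-fold higher with GW4064, and the measured log2 difference was 2.99 ± 0.20 (SE, n = 4 per group). The undetected DMSO values were higher on slide 1 than on slide 2, and the log2 difference was 2.68 on slide 1 and 3.31 on slide 2.

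Sectm1a, the neighbour and near relative of Sectm1b, had signals of 4.41%, 4.12%, 2.62% and 3.04% with GW4064, against 1.25%, 2.18%, 2.53% and 2.56% with DMSO. The groups were separated by only 0.03 on the log2 scale, between GW4064 replicate 3 and DMSO replicate 4. The difference was 0.76 ± 0.26 (SE, n = 4 per group), or 1.69-fold. It was 1.37 on slide 1 (2.58-fold) and 0.15 on slide 2 (1.11-fold), so slide 1 held most of it. Without DMSO replicate 1, the 1 array on which it was not detected, the difference was 0.52. Sectm1b was detected on none of the DMSO arrays and Sectm1a on 3 of them. Probe sequences are not used here, so cross-hybridisation between the pair was not tested.

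Slc18a1, the vesicular monoamine transporter of neuroendocrine cells, was detected on all 8 arrays. Its signals were 184%, 193%, 187% and 179% with GW4064, against 51.2%, 52.4%, 51.8% and 56.2% with DMSO. It averaged 186% ± 5.61 with GW4064 and 52.9% ± 2.24 with DMSO (SD, n = 4 each), a 3.51-fold difference, with log2 differences of 1.86 on slide 1 and 1.76 on slide 2. The coefficient of variation was 3.02% with GW4064 and 4.23% with DMSO, so the arrays of each group lay very close to one another.

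Jph2, the junctophilin of heart muscle, had signals of 2.57%, 2.68%, 2.75% and 2.44% with GW4064, against 0.796%, 0.733%, 0.787% and 0.819% with DMSO. It was detected on 4 of 4 GW4064 arrays and on 0 of 4 DMSO arrays, which gave a bound of at least 1.97-fold for GW4064 over DMSO. The measured log2 difference was 1.74 ± 0.05 (SE, n = 4 per group), 1.78 on slide 1 and 1.69 on slide 2. Arrays of a group differed little, and the lowest GW4064 array lay 1.57 above the highest DMSO array on the log2 scale.

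Rnase4 and Ang, the ribonuclease genes that start in the window printed above, were both detected on all 8 arrays. Rnase4 had signals of 87.4%, 84.4%, 78.6% and 82.6% with GW4064, against 24.0%, 23.7%, 22.6% and 25.0% with DMSO. Ang had signals of 25.0%, 26.9%, 23.6% and 22.9% with GW4064, against 9.48%, 8.32%, 8.89% and 8.12% with DMSO. The log2 difference was 1.80 ± 0.05 for Rnase4 and 1.50 ± 0.07 for Ang (SE, n = 4 per group), or 3.49-fold and 2.83-fold. On slide 1 it was 1.85 for Rnase4 and 1.55 for Ang, and on slide 2 it was 1.76 and 1.45. Within an array, the log2 signal of Rnase4 minus that of Ang ran from 1.65 to 1.85 over the GW4064 arrays and from 1.34 to 1.62 over the DMSO arrays. The ranges did not overlap, with 1.65 as the lowest GW4064 value and 1.62 as the highest DMSO value.

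**Figure D2:**
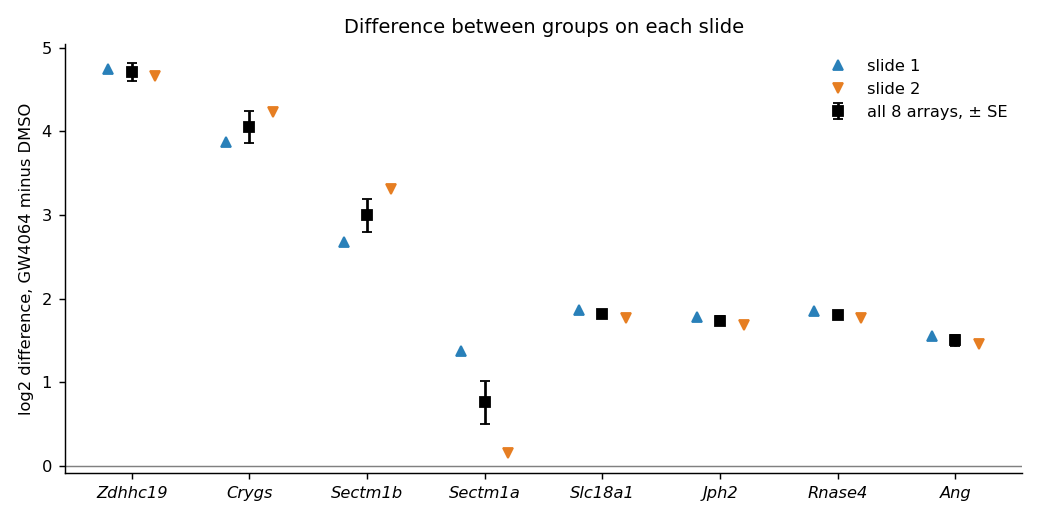
Log2 difference between GW4064 and DMSO for each gene over all 8 arrays (squares, with the standard error) and on each slide of 4 arrays (triangles). Slides differ most for Sectm1a, at 1.37 on slide 1 and 0.15 on slide 2.

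Among the GW4064 arrays, replicate 1 was highest for 4 of the 8 genes, replicate 2 for 3 and replicate 3 for 1, and replicates 3 and 4 were each lowest for 4. The differences of Slc18a1 (1.81 ± 0.04) and Rnase4 (1.80 ± 0.05), both detected on all arrays, lay within each other's standard error (n = 4 per group). Over the log2 profiles of the 8 arrays, each centred on its own mean, the gene most like Slc18a1 among 14475 others was Rnase4, with a root-mean-square difference of 0.06. Jph2 was next at 0.06 and Itih3, a hyaluronan-binding plasma protein gene, was the third at 0.08. The likeness was mutual, since Slc18a1 was also the gene most like Rnase4, followed by Itih3 and Sult1a1. Nearest to Jph2 were Epha7 (0.05), Slc18a1 and Prodh2. The measure takes in the difference between the groups, for which the 8 genes were chosen, and is a description over 8 arrays.

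Ang was most like Ang4, its relative on the same chromosome, with a root-mean-square difference of 0.09, then the actin-severing gene Gsn and D130043K22Rik. Rnase4 stood at place 27 for Ang. Zdhhc19 was nearest to Crygs (0.44), then Rbp4 and Hnf4aos, and Crygs to Hnf4aos (0.35), Slc51b and Zdhhc19. Sectm1b was nearest to Rarres2 (0.23), Crabp1 and Spp2. Sectm1a was nearest to Tmem202 (0.20), Scara5 and Utp14a, and its paralog Sectm1b stood at place 14431 of the 14475. In the other direction, Sectm1a stood at place 372 for Sectm1b. Genes with a much larger group difference than Sectm1a stand far down its order by this measure, Zdhhc19 at place 14471 and Crygs at 14467. For Zdhhc19, Crygs, Sectm1b and Jph2, DMSO values below detection enter these profiles, so these likenesses, that of Jph2 to Slc18a1 included, rest partly on undetected signals.

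Genes that lie beside the 8 on the chromosomes were not chosen for their values and were tested in the same fit. The 5 nearest protein-coding genes on each side made 60 genes, of which 46 were tested. With GW4064 12 of the 46 rose, 2 fell and 32 did not pass, against 11.8% higher and 8.95% lower over all genes. Their median log2 difference was 0.08, against 0.01 over all genes tested. Zdhhc19 and Jph2 each had 2 that rose, Crygs 2 that rose and 1 that fell, the Sectm1 pair 4 and 1, and Slc18a1 1.

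Zdhhc19 lies next to Slc51a, which encodes a subunit of the basolateral bile acid exporter. Slc51a had signals of 1276%, 1216%, 967% and 1265% with GW4064, against 9.82%, 12.7%, 7.42% and 9.70% with DMSO. Its groups lay far apart, with a log2 difference of 6.91 ± 0.16 (adjusted p = 1.43e-07 in limma). The 2 genes run in opposite directions away from each other, Slc51a on the minus strand and Zdhhc19 on the plus strand of chromosome 16, and 7901 bases of GRCm38.p6 separate their promoter windows. Beyond Slc51a, Pcyt1a, an enzyme of phosphatidylcholine synthesis, rose by 0.32 ± 0.09 (adjusted p = 0.0341), 0.52 on slide 1 and 0.13 on slide 2, and the call was lost in 9 of 20 other settings. On the other side Tfrc, the transferrin receptor, had a difference of 0.20 ± 0.08 and did not pass (adjusted p = 0.129). The other 6 tested neighbours of Zdhhc19 did not pass either.

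Crygs had small calls beside it. Tbccd1 rose by 0.14 ± 0.03 (adjusted p = 0.0139) and Dnajb11, an endoplasmic reticulum chaperone, by 0.17 ± 0.04 (0.0163). Both calls were lost with median centring. Hrg, a plasma glycoprotein gene, fell by 1.60 ± 0.47 (0.0458), by 0.55 on slide 1 and 2.64 on slide 2, and its call was lost when any 1 of 7 arrays was left out. Dgkg, nearest on the other side, had a difference of 0.21 ± 0.12 (0.257).

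Around Sectm1b and Sectm1a, Cd7, whose human product is the receptor of SECTM1, is the nearest gene on one side. It was detected on all 8 arrays with a difference of 0.28 ± 0.17 and did not pass (adjusted p = 0.290). Tex19.2, nearest on the other side, had 0.21 ± 0.14 (0.328). Farther out Fasn, fatty acid synthase, rose by 0.40 ± 0.06 (0.00243), Hexdc by 0.28 ± 0.05 (0.00443), Ccdc57 by 0.21 ± 0.05 (0.0163) and Ogfod3 by 0.19 ± 0.04 (0.0121). Slc16a3, a lactate exporter, fell by 0.85 ± 0.24 (0.0371), a call lost in 8 of 20 other settings.

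Beside Slc18a1, Atp6v1b2 rose by 0.39 ± 0.04 (adjusted p = 0.000431 in limma), with 0.39 on either slide. It encodes a subunit of the vesicular proton pump that drives transporters such as the product of Slc18a1. Its signals lay between 165% and 174% with GW4064 and between 121% and 131% with DMSO. Lpl, nearest on the other side, had -0.04 ± 0.06 (0.635). Around Jph2 the nearest genes Oser1 (0.04 ± 0.03, 0.402) and Tox2 (0.08 ± 0.10, 0.623) did not pass, while at the fifth place on either side the kinase gene Sgk2 rose by 1.11 ± 0.10 (0.000144) and Hnf4a, the transcription factor of tubule identity, by 0.85 ± 0.04 (9.27e-06).

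**Figure D3:**
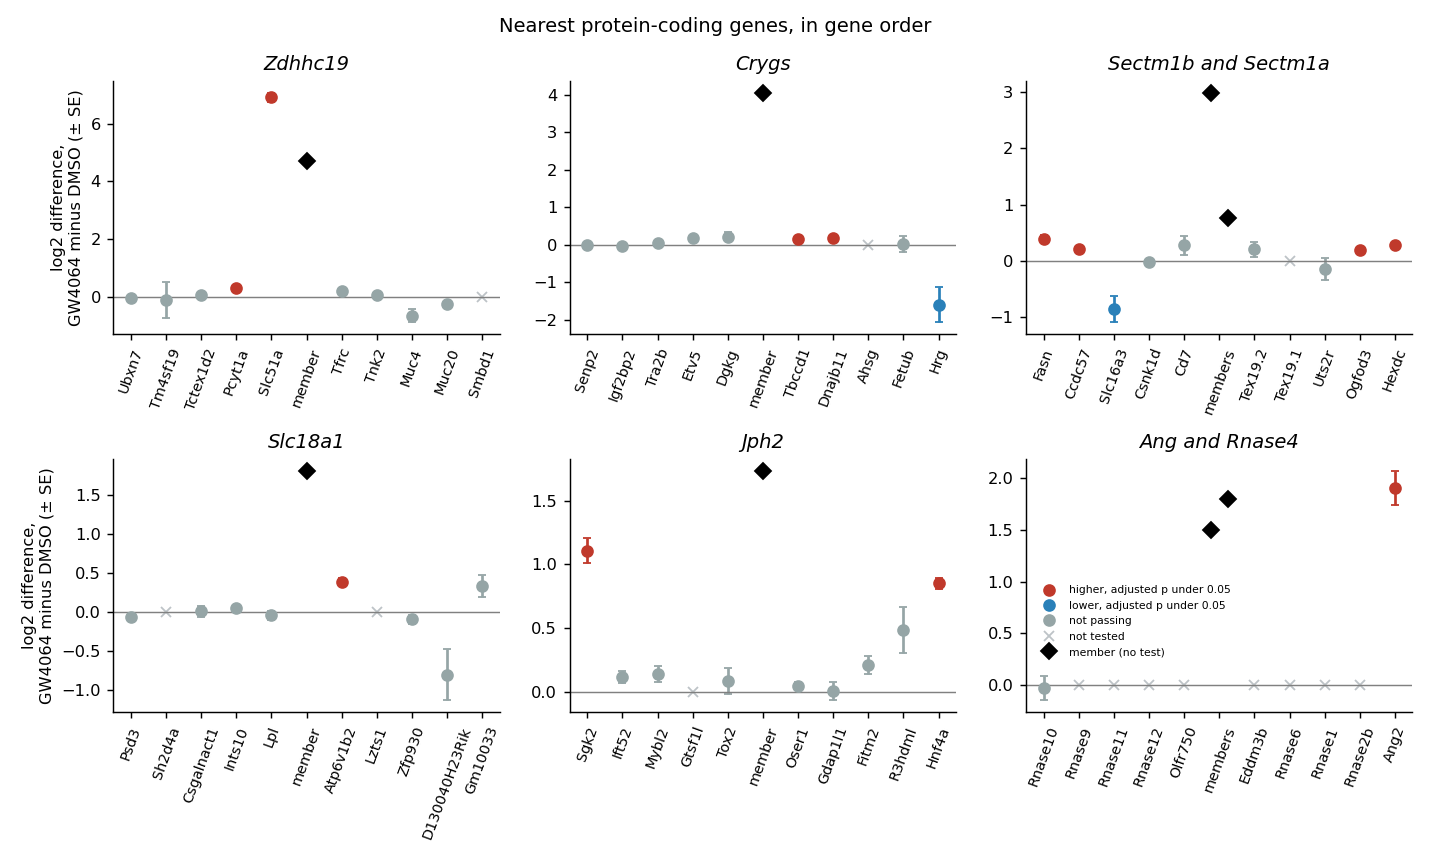
Log2 difference between GW4064 and DMSO (with standard errors) of the 5 nearest protein-coding genes on each side of each gene, in gene order and not to distance. Black diamonds are the 8 genes themselves, and grey crosses drawn at 0 are genes that were not tested. Slc51a, next to Zdhhc19, had the largest difference of all neighbours, at 6.91.

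Most neighbours of Rnase4 and Ang are other ribonuclease genes, and 8 of the 10 were too dim to be tested. Of the 2 tested, Rnase10 had a difference of -0.03 ± 0.12 (adjusted p = 0.886 in limma). Ang2, an angiogenin paralog, had signals of 4.52%, 3.42%, 3.37% and 3.06% with GW4064, against 0.865%, 1.01%, 0.756% and 1.22% with DMSO, where it was detected on 0 of 4 arrays. It was at least 2.69-fold higher with GW4064 (adjusted p = 0.000145), but it passed the filter through the GW4064 arrays alone, so it had to differ and its call adds nothing to the counts that hold it. Ang4, another paralog, was detected on all 8 arrays. It had 14.2%, 13.5%, 13.4% and 12.6% with GW4064, against 5.90%, 4.60%, 5.03% and 4.89% with DMSO, and it rose by 1.40 ± 0.08 (1.28e-05). Angiogenin paralogs are alike in sequence, and whether their probes share signal was not tested.

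Of the 23 genes of the ribonuclease list, 13 were tested. The list holds the RNase A family, other ribonucleases, the inhibitor and the receptor. It also holds an angiopoietin gene, taken in by a synonym in place of Ang3, which is no ribonuclease. That angiopoietin gene was tested, did not pass, and enters the counts and the median that follow. Ang2 and Ang4 rose, 1 gene fell and 10 did not pass (median 0.08), against 11.8% higher and 8.95% lower over all genes. Rnaset2a had -0.01 ± 0.05 and did not pass (adjusted p = 0.912 in limma). The ribonuclease inhibitor gene Rnh1 had -0.09 ± 0.06 (0.286) and Plxnb2, whose product is a receptor of angiogenin, 0.02 ± 0.04 (0.740). Both were picked for their roles after values were seen, and neither passed. Rnase1, Rnase6, Rnase9, Rnase11, Rnase12 and Rnase2b were not detected on any array.

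Of the 21 genes of the monoamine list, to which Slc18a1 belongs by function, 11 were tested, of which 7 rose, 0 fell and 4 did not pass, against the 11.8% that rose over all genes. Their median log2 difference was 0.36. With normexp 0 of the 11 were called in limma, with 3 under an unadjusted p of 0.05. Proximal tubule markers rose in the same arrays, 11 of 14, and their part in this count was not tested. Maob, a monoamine oxidase, rose by 0.68 ± 0.12 (adjusted p = 0.00590 in limma). The organic cation transporter Slc22a2 rose by 0.53 ± 0.10 (0.00924) and Slc18b1, a vesicular polyamine transporter, by 0.30 ± 0.05 (0.00383). Another 3 that rose, named after their values were seen, were the monoamine oxidase Maoa (0.36 ± 0.08, 0.0133), the monoamine transporter Slc29a4 (0.47 ± 0.13, 0.0417; lost in 11 of 20 other settings) and Ddc. Ddc makes dopamine from L-DOPA, which the proximal tubule takes up, and rose by 0.33 ± 0.07 (0.0103). Th, Slc18a2 and Slc18a3 were detected on 8 arrays and did not pass, while Dbh, Tph1, Tph2, Slc6a2 and Slc6a3 were not detected on any array.

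**Figure D4:**
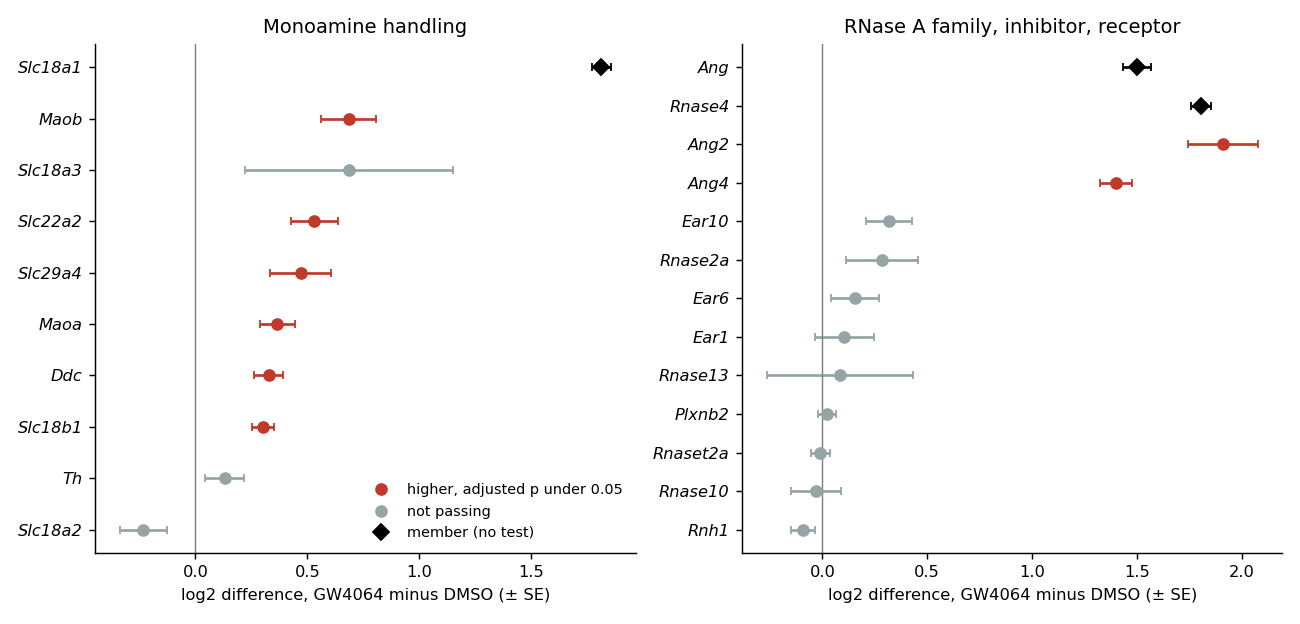
Log2 difference between GW4064 and DMSO (with standard errors) for tested genes of monoamine handling (left) and of the ribonuclease list (right). Black diamonds are Slc18a1, Rnase4 and Ang. The called monoamine genes shown lie above 0, and on the right Ang2 and Ang4 stand apart from the other tested genes shown.

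The relatives of the other genes mostly did not pass. Of 27 tested palmitoyltransferases and depalmitoylases 2 rose, 0 fell and 25 did not pass (median -0.01). They were Zdhhc9, by 0.31 ± 0.05 (adjusted p = 0.00533 in limma), and the thioesterase gene Ppt2, by 0.25 ± 0.06 (0.0244), while Lypla2 had 0.05 ± 0.03 (0.340). Among 10 tested crystallin genes 2 rose, 1 fell and 7 did not pass (median 0.01). Cryl1, whose product is an enzyme, rose by 0.44 ± 0.07 (0.00279), the lens gene Cryga by 0.45 ± 0.14 (0.0485), and Crybg3 fell by 0.21 ± 0.04 (0.00682). Cryab, a small heat shock protein gene, had -0.09 ± 0.07 (0.350).

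In the list of calcium release and membrane junction genes 2 of 16 rose and 14 did not pass (median -0.06). Itpr2, an inositol trisphosphate receptor, rose by 0.26 ± 0.04 (0.00351) and the calcium-binding chaperone Calr by 0.23 ± 0.06 (0.0369), while Itpr1 had -0.06 ± 0.05 (0.481). Of the other junctophilin genes, Jph1 was detected on 0 of 8 arrays, Jph3 on 1 and Jph4 on 5, and the ryanodine receptor genes Ryr1 and Ryr2 on 0. Of 5 tested T cell ligand and receptor genes only Cd276 rose, by 0.23 ± 0.05 (0.0185), and Icosl had -0.03 ± 0.09 (0.834). Among 20 other settings the call of Ppt2 was lost in 7, of Cd276 in 5, and of Cryga and of Calr in 11.

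Several of the 8 genes are best known from other cells, so markers of those cells were counted. Detected on all 8 arrays were 5 of 10 testis germ cell markers, 0 of 10 of lens and 4 of 10 neuroendocrine ones. For muscle this was 3 of 10, for hepatocytes 6 of 10 and for myeloid cells 5 of the 8 on the array. Of 10 testis germ cell markers 6 were tested and 0 passed in limma, with 1 under an unadjusted p of 0.05. Prm1 had 0.16 ± 0.09 (adjusted p = 0.274 in limma). Of 10 lens markers 2 were tested and 0 passed, also with no adjustment, and Bfsp2 had 0.57 ± 0.62 (0.560). Mip, Lim2, Bfsp1, Crybb1 and Cryba1 were not detected on any array. Of 10 neuroendocrine markers 4 were tested and 0 passed, with 1 under an unadjusted p of 0.05, Syp at 0.23 ± 0.10 (0.140). Chgb, Scg2, Dbh and Pcsk1 were not detected on any array. Among 5 tested muscle markers Des, desmin, rose by 0.57 ± 0.13 (0.0167) and Tnnt2 had 0.18 ± 0.10 (0.249), while Actn2, Myl2, Ryr2, Ttn and Casq2 were not detected. Among 7 tested hepatocyte markers the secreted protein genes Serpina1a (1.59 ± 0.15, 0.000180), Trf (0.90 ± 0.06, 3.73e-05) and Fgb (0.58 ± 0.12, 0.0117) rose. Apoa2 had 0.06 ± 0.08 (0.634), and Alb, Apoa1 and Ahsg were not detected on any array. Of 5 tested myeloid markers Csf1r (0.75 ± 0.05, 2.35e-05) and Elane (0.55 ± 0.12, 0.0165) rose, and Itgam had 0.03 ± 0.11 (0.864).

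The size of the difference depended on the background correction, most of all for the dim genes. With normexp, which adds 50 to every signal, and the same scaling, the log2 difference was 0.71 for Zdhhc19, 1.24 for Crygs and 0.09 for Sectm1b. It was -0.34 for Sectm1a and -0.37 for Jph2, so the direction turned for both. As folds these were 1.63 for Zdhhc19, 2.36 for Crygs, 1.06 for Sectm1b and 0.775 for Jph2, each below the bound given above. The bright genes kept their direction, Slc18a1 at 1.64, Rnase4 at 1.32 and Ang at 0.61. In limma this setting called 119 genes in all and 0 of the 82 relatives, of which 9 were under an unadjusted p of 0.05. With quantile normalization after normexp, a setting chosen after seeing the data, all 8 genes were higher with GW4064 again, at 1.33, 1.78, 0.77, 0.24, 1.65, 0.36, 1.45 and 0.98 for Zdhhc19, Crygs, Sectm1b, Sectm1a, Slc18a1, Jph2, Rnase4 and Ang. That setting called 2534 genes, with 13 relatives and 12 neighbours higher.

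**Figure D5:**
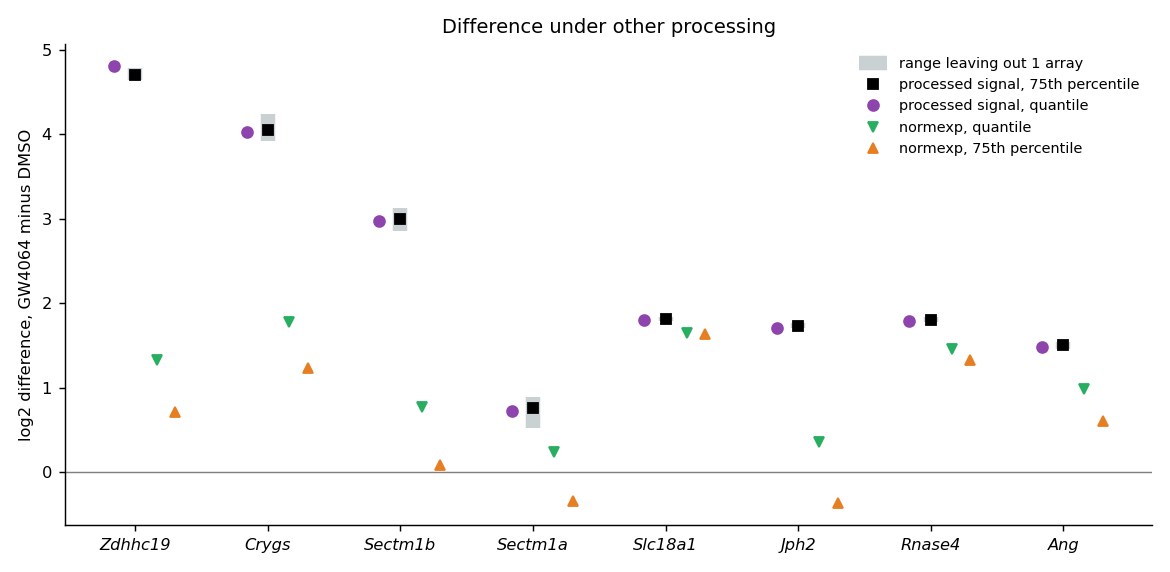
Log2 difference between GW4064 and DMSO for each gene under other processing. Grey bars span the values with 1 array left out, and circles and triangles show quantile normalization and both normexp settings. Sectm1a and Jph2 fall below 0 with normexp and 75th percentile scaling, and Slc18a1 moves least.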

How the data were processed

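RNA of 8 samples was measured on 1-colour Agilent arrays, 1 array each. The authors deposited spot intensity, background-subtracted; the file headers give Feature Extraction 10.7.3.1 as the software and mm9 as the build. Version 10.7 and limma appear in the submitters' processing notes. The authors also deposited a table of log2 values, with a median of 6.60 in every column. These correlated at 0.9996 or more with the log2 signals of their own array, so their scale and direction were plain, and they served as an alternative.

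Control and outlier spots were left out, spots of a probe were averaged, and processed signals were divided by their array's 75th percentile (1203 to 1900) and taken as log2. Accessions were matched without versions to the GRCm38.p6 gene table, giving 27234 of 39429 probes a symbol. The share of probes well above background was 61.4% to 65.7%, and the number of arrays limits the precision. The brightest probe detected on at least 4 of 8 arrays stood for a gene (14476 genes). Tests used limma 3.58.1 (R 4.3.3) on the GW4064 and DMSO groups, with Benjamini-Hochberg adjustment over all genes; errors are its standard errors, n = 4 per group. The fit was tested on simulated data. The arrays lay on 2 slides, each with 2 arrays of either group, and GW4064 arrays took the third and the fourth place, so place and treatment cannot be told apart. For a bound, each dim array counted at its lowest detected signal, or at the dim probe's own where that was higher, and the bright mean was set over the mean of these. Such a bound rests on the processed signals and is no limit under other background corrections.

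The genes and lists were chosen with earlier results of these data known. Names were taken by a rule: the 8 genes, up to 4 called genes of a list with the smallest p and its brightest uncalled gene, nearest and called neighbours, and the 3 most alike genes. Other names are said to be chosen afterwards. Normexp was run on median spot signals. Some genes of the lists are counted but not reported here by name.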

Additional observations from a re-analysis of the deposited data

Results flagged for a closer look

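In 13 of 190 groups of 4 arrays 1 array lay far from the other 3 by Dixon's test; chance gives about 1 group in 20. Among the 16 groups of the 8 genes this was 1, Zdhhc19, where DMSO replicate 1 stood at -8.08 (log2 relative to the 75th percentile, as throughout) and the other DMSO arrays between -8.40 and -8.37, with none of the 4 detected.

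GW4064 replicate 3 was low for Ass1 at 4.85, for Dnajb11 at 2.65, for Crabp1 at -2.23 and for Spp2 at -0.94, and high for Slc29a4 at -2.71. GW4064 replicate 4 was high for Pdgfrb at -1.29 and for Atp6v1b2 at 0.80.

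DMSO replicate 2 was low for Dgkg at -3.07 and for Gsn at 4.25, and high for Sult1a1 at -2.89. DMSO replicate 3 was low for Cryl1 at 2.44, and DMSO replicate 4 for Cryga at -5.64.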

How the results depend on the processing

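Over 144 recomputed differences of the 8 genes, 126 moved by less than 1 SD, 16 by more and 2 turned. Many of the 126 were fixed in advance. Averaging probes and adding a replicate or slide block left the difference unchanged by design. Leaving out 1 array cannot move it by 1 SD. The count of 126 is therefore no measure of how stable the differences were. With normexp they were 0.71 for Zdhhc19, 1.24 for Crygs, 0.087 for Sectm1b, -0.34 for Sectm1a, 1.64 for Slc18a1, -0.37 for Jph2, 1.32 for Rnase4 and 0.61 for Ang. With quantile normalization after it, chosen after seeing the data, they were, in the same order, 1.33, 1.78, 0.77, 0.24, 1.65, 0.36, 1.45 and 0.98. Sectm1a was 1.37 on slide 1 and 0.15 on slide 2. With 1 array left out the ranges were 4.65 to 4.78, 3.92 to 4.25, 2.85 to 3.13, 0.52 to 0.89, 1.79 to 1.84, 1.70 to 1.77, 1.78 to 1.83 and 1.46 to 1.54. Why values moved was not tested. Counts of calls, higher and then lower, were 80 and 39 genes with normexp, 607 and 359 on slide 1 and 168 and 52 on slide 2, where 4 arrays each remained. Relatives were 0 and 0 with normexp, 5 and 1 on slide 1 and 1 and 0 on slide 2. Lower relatives were 5 with quantile normalization and 4 with the deposited table and with normexp and quantile normalization. Markers of other cells that were higher numbered 3 with normexp and 2 on slide 2. Higher neighbours numbered 2 with normexp and 2 on slide 2. Lower neighbours numbered 0 with normexp and with no filter, and 1 with detection on all 8 arrays, with slide as a block, on slide 1 and on slide 2. With 1 array left out the counts were 1187 to 1636 and 889 to 1210 genes, 11 to 16 and 2 to 4 relatives, 6 to 7 and 0 to 1 markers, and 10 to 13 and 0 to 2 neighbours. Replicate numbers showed no clear pairing of the samples. Same-numbered deviations correlated at -0.131, -0.0286, 0.192 and -0.022, and only replicate 3 matched its own number best. The labels state no pairing, and so few correlations cannot exclude one. With the replicate number as a block 2322 genes were called, with 4 relatives and 1 marker lower. Signals near background limit Zdhhc19, Crygs, Sectm1b and Jph2 to bounds, which hold for the main processing alone.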
